A study of Mus musculus with 12 samples.

Results

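In an interval that starts at about 93 Mb of mouse chromosome 3 (GRCm38), the 57 genes described here run from Snx27 (start 94497544) to Phtf1. These genes lie around the growth signalling gene Nras and the survival gene Mcl1. They are 57 of the 54658 genes in the count tables and were chosen by name from an earlier look at the same data, in which genes of this stretch were high in a single mammary tumour, tumour 17. The choice therefore used the level of tumour 17 against the other tumours, and every value of that contrast below is a description with no test. RNA was sequenced from 9 mammary tumours of the genotype Trp53R245W/+, which carry a missense change in 1 allele of the tumour suppressor gene Trp53, and from 3 samples of epithelium enriched from wild-type mammary glands. All samples were from female C57BL/6J X BALB/cJ F1 hybrid mice. Tumours are called by the numbers in their labels (1, 4, 5, 14, 17, 20, 21, 24 and 27) and epithelium samples by 1, 2 and 3. The labels do not say whether each sample came from a separate mouse, so p-values measure the spread between these samples, which may in part be technical. The prefix of the sample titles differs between tumours and epithelium as the genotype does, and the epithelium was enriched from glands. Tumour state, genotype, the enrichment and any batch behind that prefix therefore cannot be told apart.

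Nras encodes a small GTPase of the RAS family, which passes signals from growth factor receptors to the RAF, MEK and ERK kinases and to PI3 kinase. Mcl1 encodes a BCL2 family protein that binds pro-death members of that family at mitochondria and keeps cells alive. Genes that lie side by side on a chromosome can be gained or lost together as a stretch of DNA, in which case their RNA often moves together. Only RNA was measured in the files used here, and the DNA copy number of the stretch is not analysed here.

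To show the starts of the genes that the results turn on, the bases just upstream of 4 of them are printed 5′ to 3′ from RefSeq (GRCm38.p6, all on the + strand). Nras and Bcas2 were among the members furthest raised in tumour 17, Mcl1 is the survival gene, and Ctss, in the same stretch, was the member nearest to the other tumours. Capitals mark, on either strand, the GC box letters GGGCGG, the letters of the box named CCAAT, the E-box letters CACGTG and the cyclic AMP response element letters TGACGTCA. The windows are chr3:103058187-103058284 for Nras, chr3:95658471-95658720 for Mcl1, chr3:103171405-103171654 for Bcas2 and chr3:95526536-95526785 for Ctss. That of Nras holds 98 bases and the others hold 250 bases each.
Nras: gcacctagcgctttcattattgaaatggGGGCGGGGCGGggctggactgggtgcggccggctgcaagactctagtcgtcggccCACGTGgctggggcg
Mcl1: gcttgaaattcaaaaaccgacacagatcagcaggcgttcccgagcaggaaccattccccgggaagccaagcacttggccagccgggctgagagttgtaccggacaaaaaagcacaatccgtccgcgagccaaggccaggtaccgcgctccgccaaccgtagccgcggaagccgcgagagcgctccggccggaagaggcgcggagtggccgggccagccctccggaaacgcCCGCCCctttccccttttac
Bcas2: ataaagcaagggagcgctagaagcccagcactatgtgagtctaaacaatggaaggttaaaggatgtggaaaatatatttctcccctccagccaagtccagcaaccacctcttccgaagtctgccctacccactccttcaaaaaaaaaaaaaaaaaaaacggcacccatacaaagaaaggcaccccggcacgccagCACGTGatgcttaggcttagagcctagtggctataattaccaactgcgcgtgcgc
Ctss: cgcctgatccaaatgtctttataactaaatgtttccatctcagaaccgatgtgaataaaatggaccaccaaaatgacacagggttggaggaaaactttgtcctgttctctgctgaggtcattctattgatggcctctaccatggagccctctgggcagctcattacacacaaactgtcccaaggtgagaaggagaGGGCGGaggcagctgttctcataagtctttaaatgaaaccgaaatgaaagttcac

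In Nras, GGGCGG occurred at 2 places that overlap by a base, and CACGTG once. Mcl1 held GGGCGG once on the other strand (CCGCCC), Bcas2 held CACGTG once, and Ctss held GGGCGG once. Over the 250-base windows of the 46 members with a RefSeq entry, GGGCGG was found in 26 (56.5%), against 32.9% of the 27025 genes in the same table, which include noncoding genes. CCAAT was found in 17 members (37.0%, against 34.5%), CACGTG in 5 (10.9%, against 6.05%) and TGACGTCA in 1 (2.17%, against 1.62%). The median GC content was 56.8% in members (range 41.2 to 82.4) and 52.0% in all. A match is a string of letters, not a measured binding site, and both Ctss and Nras held GGGCGG.

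Library sizes ran from 19695318 to 33600076 counts in genes, with 23832833 in tumour 17. Levels are in counts per 1000000 (CPM), with library sizes scaled by the trimmed mean of M values and no prior count, and 3 counts, the limit that a count of 0 allows, came to 0.0986 to 0.274 CPM on these scaled sizes. The member with the fewest counts in tumour 17, Adamtsl4, had 147, so counting error was small beside the differences below. Tumour 4 stood apart from the other libraries, with 52.0% of its alignments not unique and 22.6% of its gene counts in the RNA gene Rn7sk. Of the members, 11 were at least 2-fold above the median of the other tumours in tumour 4 and 11 at least 2-fold below it. The 11 high members had a median exonic length of 2165 bases, against 5496 in the other 46.

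In tumour 17 nearly the whole stretch was high. The 57 members together took 3.16% of the gene counts of tumour 17, against 0.331 to 0.616% in the other tumours and 0.497 to 0.543% in epithelium. Each gene's deviation was taken as log2 CPM (prior count 2) minus the median of the other 8 tumours. The deviation in tumour 17 had a median of 2.66 over the members, with the middle 50% from 2.15 to 2.96, and the median fold over those tumours was 6.31. A deviation of at least 1, or 2-fold, was found in 51 of the 57 members, and in 8.16% of the 12529 genes that averaged 5 CPM or more over the tumours. A deviation of -1 or less was found in none of the members and in 4.51% of those genes. Tumour 17 was the highest of the 9 tumours in 49 members (7.64% of all genes), and at least 2-fold above the next tumour in 43 (1.36% of all genes). In the other 8 tumours the median over the members ran from -0.40 in tumour 27 to 0.32 in tumour 14. Leaving out tumour 4 gave a median of 2.62 in tumour 17.

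**Figure D1:**
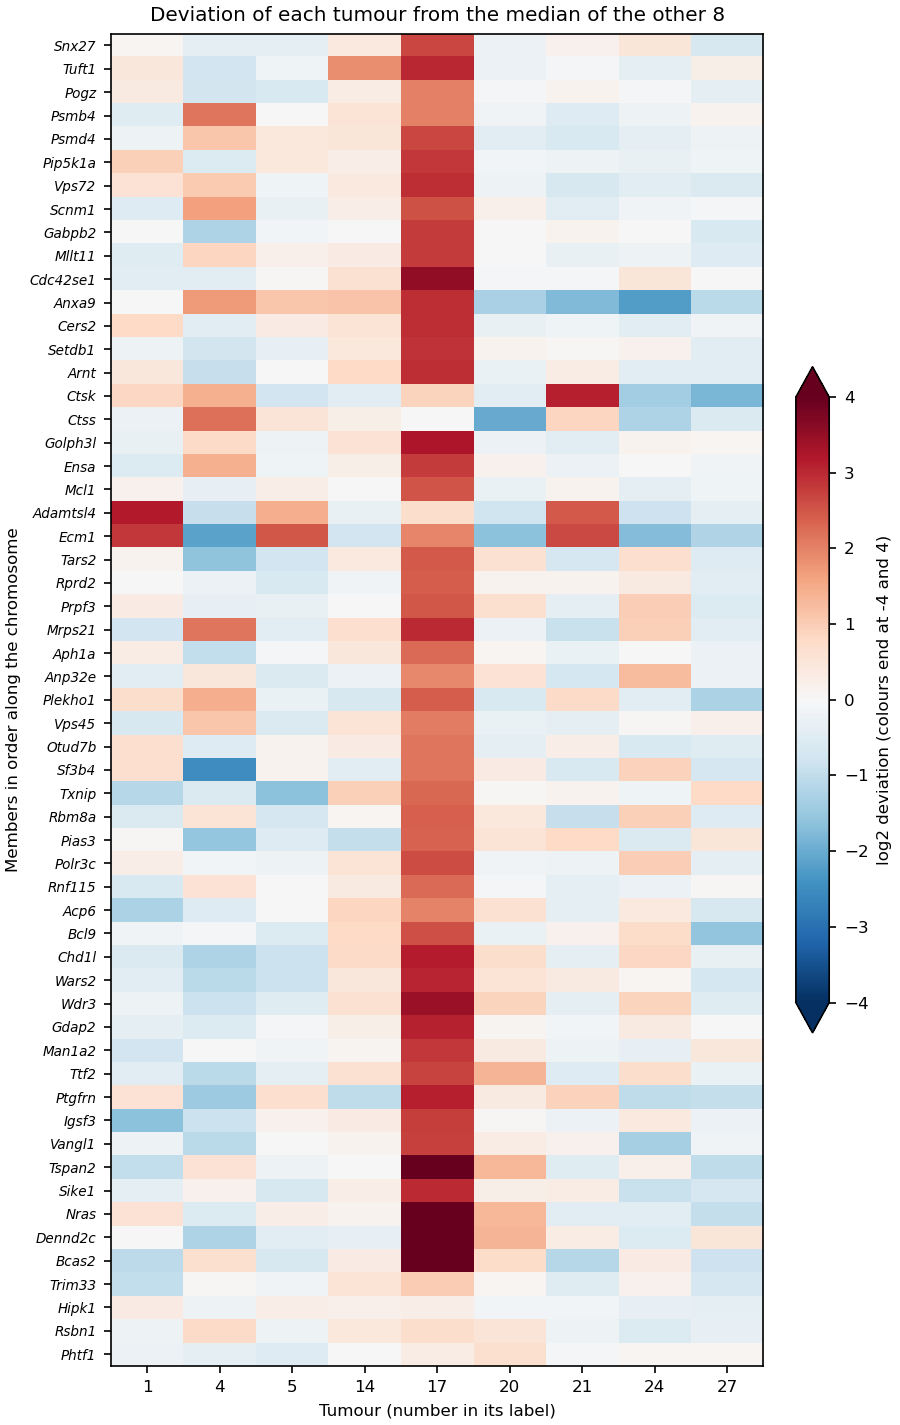
Deviation of each tumour from the median of the other 8 tumours (log2 of CPM with a prior count of 2), with the 57 members from top to bottom in the order of their positions on chromosome 3 and 1 tumour in each column. Tumour 17 is high over nearly the whole stretch, from Snx27 to Trim33, with gaps at Ctsk, Ctss and Adamtsl4 and at the end from Hipk1 to Phtf1, while the other tumours show no such band.

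Against epithelium, tumour 17 was above all 3 libraries in 53 of the 57 members (52.6% of all genes averaging 5 CPM or more over the tumours), and the median difference was 2.98 on the log2 scale. The level of tumour 17, by which the members were chosen, enters this difference too, so it has no test. The exceptions were Ctsk, Adamtsl4, Hipk1 and Rsbn1.

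Growth signalling and survival genes included the member that stood out furthest. Nras (103058285 to 103067914, + strand) had 5016 CPM in tumour 17, and 70.0, 117 and 291 CPM as the lowest, median and highest of the other 8 tumours, in tumours 27 and 20 at the ends. In epithelium it had 92.1, 93.5 and 91.9 CPM. Tumour 17 was thus alone, at 42.7-fold the median of the other tumours, 17.2-fold the next tumour and 54.2-fold the epithelium mean, while the other tumours overlapped the epithelium. Per kilobase of exon, Nras ranked 10 among 21854 protein-coding genes in tumour 17 (941 CPM per kilobase), between 512 and 3523 in the other tumours and between 2031 and 2108 in epithelium.

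Mcl1 (95658788 to 95663176, + strand) had 1292 CPM in tumour 17, between 186 and 271 CPM in the other tumours with a median of 227, and 408, 488 and 389 CPM in epithelium. The 3 sets did not overlap: tumour 17 was highest, at 5.70-fold the median of the other tumours and 3.02-fold the epithelium mean, and the other 8 tumours were all below the epithelium. Per kilobase, Mcl1 ranked 43 in tumour 17, between 295 and 870 in the other tumours and between 125 and 165 in epithelium. Cdc42se1, which encodes a small protein that binds the GTPase CDC42, had 2118 CPM in tumour 17, 134, 180.5 and 278 CPM as the lowest, median and highest of the other tumours, and 119 to 121 CPM in epithelium.

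Of the 11 members in this role group, 10 had a deviation of at least 1 in tumour 17, with a group median of 2.51. Bcl9, a coactivator of beta-catenin, had 186 CPM in tumour 17 and 11.1 to 53.6 CPM in the other tumours. Pias3, a SUMO ligase that restrains STAT signalling, had 64.5 CPM against 5.38 to 21.9. Txnip, an inhibitor of thioredoxin that glucose induces, had 1711 CPM against 119 to 668. Trim33, a ubiquitin ligase of TGF-beta signalling, was the least raised member past 1 (1.03), with 364 CPM against 94.8 to 263, and Hipk1, a nuclear kinase gene, was the member of this group that stayed below 1.

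**Figure D2:**
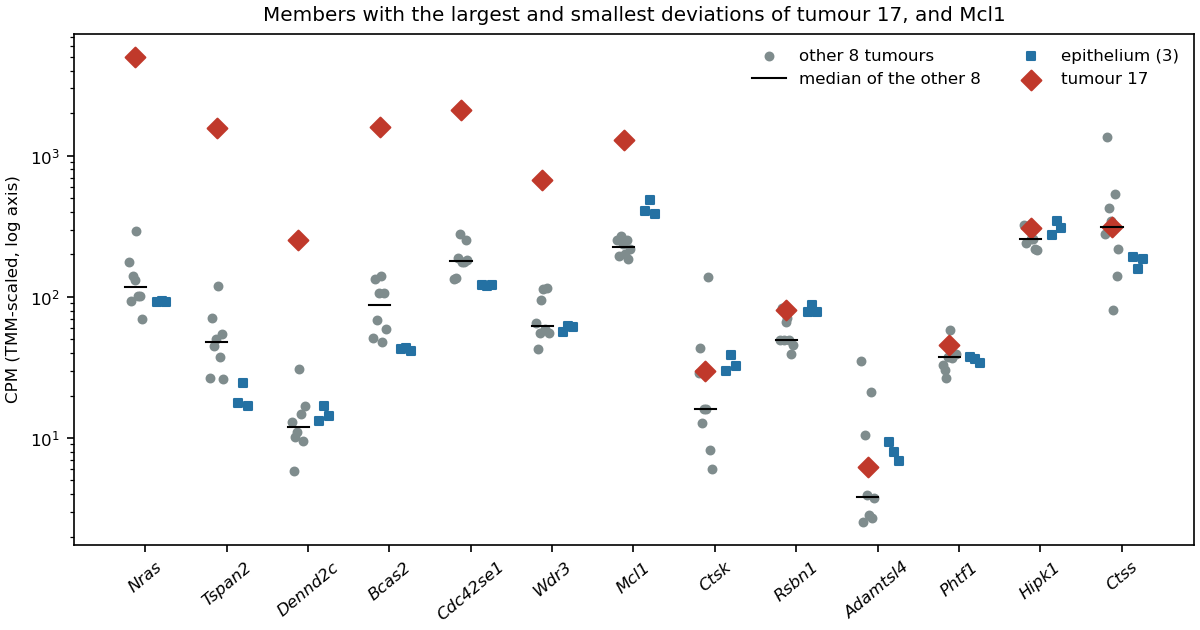
CPM on a log axis for members named in the text, with 1 point for each library: tumour 17, the other 8 tumours and the 3 epithelium libraries. Tumour 17 lies above every other library for Nras (5016 CPM) and Mcl1 (1292 CPM), and inside the range of the other tumours for Ctss (313 CPM) and Hipk1 (310.1 CPM).

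Of the 13 chromatin and transcription genes, 11 had a deviation of at least 1 in tumour 17 (group median 2.72). Setdb1, a histone methyltransferase that silences transposable elements, had 678 CPM in tumour 17, 59.5, 91.6 and 123 CPM as the lowest, median and highest of the other tumours, and 66.5 to 70.7 CPM in epithelium. Arnt, the shared partner of the hypoxia-inducible factors and the aryl hydrocarbon receptor, had 638 CPM in tumour 17 and 49.4 to 143 CPM in the others. In both genes tumour 17 was apart from all 11 other libraries. Chd1l, a chromatin remodeller, had a deviation of 3.15, Vps72, which deposits the histone variant H2A.Z, 2.95, and Anp32e, which removes that variant, 1.91. Rsbn1 and Phtf1, at the far end of the stretch, were below 1.

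All 9 members of RNA processing and translation had a deviation of at least 1 (median 2.53). Bcas2, a component of the spliceosome's PRP19 complex, had 1612 CPM in tumour 17, 47.6, 87.0 and 140.2 CPM as the lowest, median and highest of the other tumours, and 42.5, 43.2 and 41.6 CPM in epithelium. That is 18.5-fold the median of the other tumours and 11.5-fold the next. Wdr3, which acts in the assembly of the small ribosomal subunit, had 679 CPM in tumour 17, 42.9 to 115 CPM in the other tumours and 56.2, 61.9 and 61.5 CPM in epithelium. Rbm8a, a core protein of the exon junction complex, had 377 CPM in tumour 17 against 46.4 to 137 in the other tumours. Sf3b4 of the spliceosome had 110.5 CPM in tumour 17 against 5.38 to 47.6, and the mitochondrial tRNA synthetase genes Tars2 and Wars2 had deviations of 2.44 and 3.06.

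The 4 proteasome and ubiquitin members were all past 1, with a median of 2.21. Psmd4, a ubiquitin receptor of the proteasome, had 844 CPM in tumour 17 and 101 to 286 in the other tumours. Psmb4, a subunit of the proteasome core, had 340.0 CPM in tumour 17 and 61.8 to 372 in the others. Tumour 4 was above tumour 17 in Psmb4. Otud7b, a deubiquitinase, and Rnf115, a ubiquitin ligase, had deviations of 2.15 and 2.27.

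Vesicle and lipid genes were past 1 in all 11 members (median 2.83). Dennd2c, which activates Rab GTPases, had 253 CPM in tumour 17, 5.83, 12.02 and 30.6 CPM as the lowest, median and highest of the other tumours, and 13.2, 16.98 and 14.3 CPM in epithelium. It stood 21.05-fold above the median of the other tumours. Snx27, a sorting nexin that returns receptors to the cell surface, had 405 CPM against 45.3 to 89.8, Cers2, a ceramide synthase, 752 against 78.6 to 168, and Man1a2, a Golgi mannosidase, 1294 against 115 to 252. In each of these genes tumour 17 lay above every other tumour.

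Matrix and cell surface genes were the most divided, with 6 of 9 past 1 and a median of 2.74. Tspan2, a tetraspanin of the plasma membrane, had 1582 CPM in tumour 17, 26.1, 47.7 and 120.2 CPM as the lowest, median and highest of the other tumours, and 17.8, 24.4 and 16.8 CPM in epithelium. Its fold over the median of the others was 33.2, the second largest after Nras. Igsf3 and Ptgfrn, related immunoglobulin superfamily membrane proteins, had 1244 CPM against 62.9 to 238 and 1356 CPM against 81.5 to 298. Vangl1, a planar cell polarity protein, had 419 CPM against 26.9 to 76.4. The cathepsins Ctsk and Ctss and the matrix gene Adamtsl4 were below 1.

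Among the 51 members past 1, the 4 largest deviations and the smallest, that of Trim33, were set apart by their values from the other 46. Nras, Tspan2, Dennd2c and Bcas2 had the largest deviations, 5.43, 5.05, 4.39 and 4.25, and follow one another along the chromosome among the members, with Sike1 (2.97) between Tspan2 and Nras. The other 46, leaving out Trim33, ran from 1.91 to 3.55, or 3.76-fold to 11.7-fold, over the rest of the stretch. The 2 highest after the leading 4 were Cdc42se1 (3.55) and Wdr3 (3.45).

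The position of a gene went with its deviation. In 1-Mb bins of all genes with at least 5 CPM, the median in tumour 17 ran from -0.36 to 0.58 between 80 and 88 Mb and from 1.01 to 1.37 between 88 and 91 Mb. It was 0.29 on 1 gene from 92 to 93 Mb and 1.20 on 2 genes from 93 to 94 Mb. It was 2.37 from 94 to 95 Mb, 2.66 from 95 to 96 Mb, 2.14 from 96 to 97 Mb, 2.93 from 97 to 98 Mb and 1.86 on 4 genes from 98 to 99 Mb. The bins from 99 to 103 Mb had medians from 2.74 to 3.10, on 4 to 11 genes each, before 1.31 in the bin that starts at 103 Mb and 0.57 in the next. The bin from 93 to 94 Mb, which holds no member, and the one that starts at 103 Mb were thus no higher than the bin from 90 to 91 Mb (1.37). The filter of 5 CPM averages over tumours that include tumour 17, so a gene can enter a bin through its level there alone. The bins were not redone with tumour 17 left out of the filter.

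**Figure D3:**
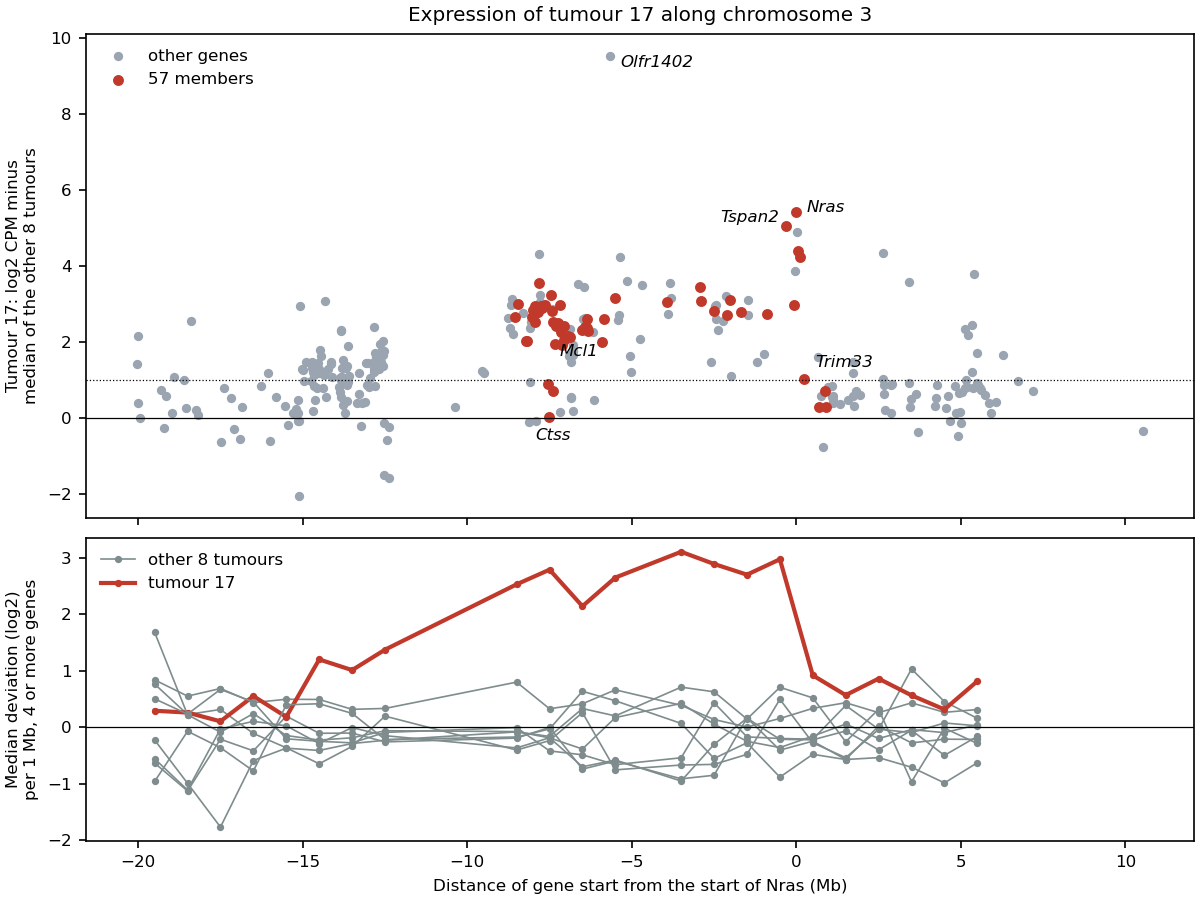
Deviation of single genes in tumour 17 (points, log2) by distance from the start of Nras in Mb, with members marked apart from other genes with at least 5 CPM and with lines below for the medians of bins of 1 Mb, counted from Nras and joined over bins with fewer than 4 genes, in each tumour. Tumour 17 rises above the other tumours in a block that ends close after Nras, where Nras reaches 5.43 and Hipk1 and Phtf1 lie at 0.27 and 0.29. The filter of 5 CPM on the other genes includes tumour 17.

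Genes of the interval that are not members were also high in tumour 17. Of 66 other genes with at least 5 CPM in the interval of 11 Mb from 93 Mb, 56 had a deviation of at least 1 in tumour 17, with a median of 2.42. Tumour 17 is part of that filter, so a gene can pass through its level alone. With the filter on the mean of the other 8 tumours, chosen after seeing the data, 47 of 57 other genes were at or over 1 (median 2.24), against 7.76% of all genes. All 57 members passed that filter, with 51 at or over 1. Under the filter that includes tumour 17, the 118 genes in the 10 Mb before had a median of 1.02 and the 64 in the 10 Mb after 0.68. The rest of chromosome 3 (339 genes) had -0.13 and all 12529 genes 0.02. With the filter on the other 8 tumours these medians were 1.00, 0.68, -0.17 and 0.02. Just inside the interval lay S100a11 (1.22) at its start and Phtf1 (0.29), itself a member, at its end, and just outside it lay Gm4202 (0.29) and Magi3 (0.81). Among the members, Trim33 (1.03) and Ctsk (0.89) were nearest to the threshold of 1 on either side.

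The 6 members below 1 lie in 2 places. Ctss (0.01), Hipk1 (0.27) and Phtf1 (0.29) were under 0.5, and Adamtsl4 (0.69), Rsbn1 (0.71) and Ctsk (0.89) lay between 0.5 and 1. Hipk1 had 310.1 CPM in tumour 17, 214, 257 and 321 CPM as the lowest, median and highest of the other tumours, and 273, 347 and 306 CPM in epithelium. Phtf1 had 45.8 CPM in tumour 17, 26.6, 37.4 and 58.0 CPM in the other tumours, and 37.5, 36.3 and 34.1 CPM in epithelium. Rsbn1 had 81.0 CPM in tumour 17, 39.1, 49.6 and 83.6 CPM in the other tumours, and 78.7, 88.2 and 77.8 CPM in epithelium. These 3 are the last members of the stretch, and in each of them tumour 17 was the second highest tumour, within the range of the other tumours.

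The other 3 lie within the raised stretch, close to Mcl1. Ctss, a lysosomal protease of antigen-presenting cells, had 313 CPM in tumour 17, 80.9, 312 and 1356 CPM in the other tumours, and 192, 159 and 184 CPM in epithelium. Tumour 17 was the fifth highest of the 9 tumours in Ctss, whose deviation was the smallest of the 57. Ctsk, a collagen-degrading protease of osteoclasts and fibroblasts, had 29.9 CPM in tumour 17, 5.98, 16.1 and 139 CPM in the other tumours, and 30.0, 38.8 and 32.5 CPM in epithelium. Adamtsl4, a gene of the matrix around microfibrils, had 6.22 CPM in tumour 17, 2.55, 3.82 and 35.2 CPM in the other tumours, and 9.34, 7.92 and 6.82 CPM in epithelium. The members next to them were not as low: Arnt before Ctsk had a deviation of 2.96 and Golph3l after Ctss 3.23, and Mcl1 and Ecm1 on either side of Adamtsl4 had 2.51 and 1.94.

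Ctss was highest in tumour 4 (1356 CPM), which also had the highest sum of 9 macrophage markers (4006 CPM). That sum was 1598 CPM in tumour 17, 603 to 4006 CPM in the other tumours and 907 to 1187 CPM in epithelium, and none of the 9 markers was at 0 in tumour 17. Ctsk was highest in tumour 21 (139 CPM), which had the highest sum of 8 fibroblast markers (31942 CPM, against 1361 to 5890 in the other tumours and 3614 in tumour 17). The part of these cells in the levels of Ctss and Ctsk was not tested, and in bulk samples fewer cells of a type and less RNA per cell cannot be told apart. Ecm1, a secreted matrix protein gene, had a deviation of 1.94, yet tumour 17 (89.1 CPM) was the fourth highest tumour, below tumour 1 (165 CPM). The SD of log2 CPM over the 8 other tumours was 1.24 to 1.46 in Ctss, Ctsk and Adamtsl4, against a median of 0.53 in the 51 that followed. A large SD did not mark the members below 1: the 51 ran from 0.20 to 1.67, with Ecm1 the largest. Hipk1, Phtf1 and Rsbn1, also below 1, had SDs of 0.22, 0.33 and 0.37.

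The next comparison asked whether the members also differed between the other 8 tumours and epithelium. It left out tumour 17, although the same 8 tumours gave the median from which its deviation was taken. By edgeR's quasi-likelihood test with Benjamini-Hochberg adjustment over 21338 genes, 9 of the 57 members were higher and 2 lower in the tumours. That is 19.3% of the members, against 18.1% of all genes tested (7.77% higher and 10.3% lower). The share called in both directions together was thus close to the background. By direction, more members were called higher than lower (9 and 2), while over all genes fewer were (1657 and 2195). That split was not tested. The median log2 fold change was 0.44 over the members and 0.17 over all genes, with 42 members positive and 15 negative. The median over all genes was thus positive too, and the share of all genes with a positive fold change was not counted. All 8 tumours lay above all 3 epithelium libraries in 14 members (10.5% of all genes) and below them in 3 (14.6% of all genes), which were Gabpb2, Mcl1 and Txnip.

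The 9 members that rose were Igsf3, Mllt11, Rbm8a, Vangl1, Psmd4, Bcl9, Mrps21, Ptgfrn and Vps72. In Igsf3 the 8 tumours had 62.9, 182 and 238 CPM as the lowest, median and highest, and the epithelium had 23.4, 37.6 and 25.4 CPM. The groups did not overlap (log2 fold change 2.58, SE 0.42, edgeR adjusted p = 0.00169). In Mllt11, a gene first found in leukaemia fusions, the tumours had 11.7, 15.1 and 27.5 CPM and the epithelium 6.43, 6.46 and 6.18 CPM (1.37, SE 0.34, edgeR adjusted p = 0.0159).

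Rbm8a had 46.4, 72.0 and 137 CPM in the tumours and 33.7, 32.02 and 30.2 CPM in epithelium (log2 fold change 1.33, SE 0.35, edgeR adjusted p = 0.0228). Vangl1 had 26.9, 62.7 and 76.4 CPM against 23.8, 26.3 and 23.0 CPM (1.24, SE 0.35, edgeR adjusted p = 0.0304). Neither gene overlapped between the groups. Psmd4 had 101, 134 and 286 CPM against 72.2, 68.3 and 72.0 CPM (1.15, SE 0.33, edgeR adjusted p = 0.0335). Bcl9 had 11.1, 30.9 and 53.6 CPM against 11.9, 11.9 and 13.6 CPM (1.40, SE 0.43, edgeR adjusted p = 0.0419), so that its lowest tumour was below the epithelium. Mrps21, a mitochondrial ribosome gene, Ptgfrn and Vps72 had log2 fold changes of 1.93, 1.37 and 1.11.

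The 2 that fell were Mcl1 and Txnip. For Mcl1, with the values given above, the log2 fold change was -0.92 (SE 0.20, edgeR adjusted p = 0.00919). Txnip had 119, 345 and 668 CPM in the tumours and 1158, 1059 and 876 CPM in epithelium (-1.52, SE 0.44, edgeR adjusted p = 0.0320). Nras missed the threshold (log2 fold change 0.59, SE 0.39, edgeR adjusted p = 0.307), as did Tspan2 (1.46, adjusted p = 0.0520) and Bcas2 (1.07, adjusted p = 0.0721). The epithelium libraries also held more RNA of some other cell types. The sum of 7 T and NK cell markers was 268 to 318 CPM there and 0.768 to 24.6 CPM in the 8 tumours. That of 5 B and plasma cell markers was 422 to 523 CPM against 2.16 to 111. For 6 endothelial markers it was 821 to 1046 CPM against 177 to 708. The macrophage and fibroblast sums overlapped between the groups. The part of such cells in the fold changes was not tested.

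**Figure D4:**
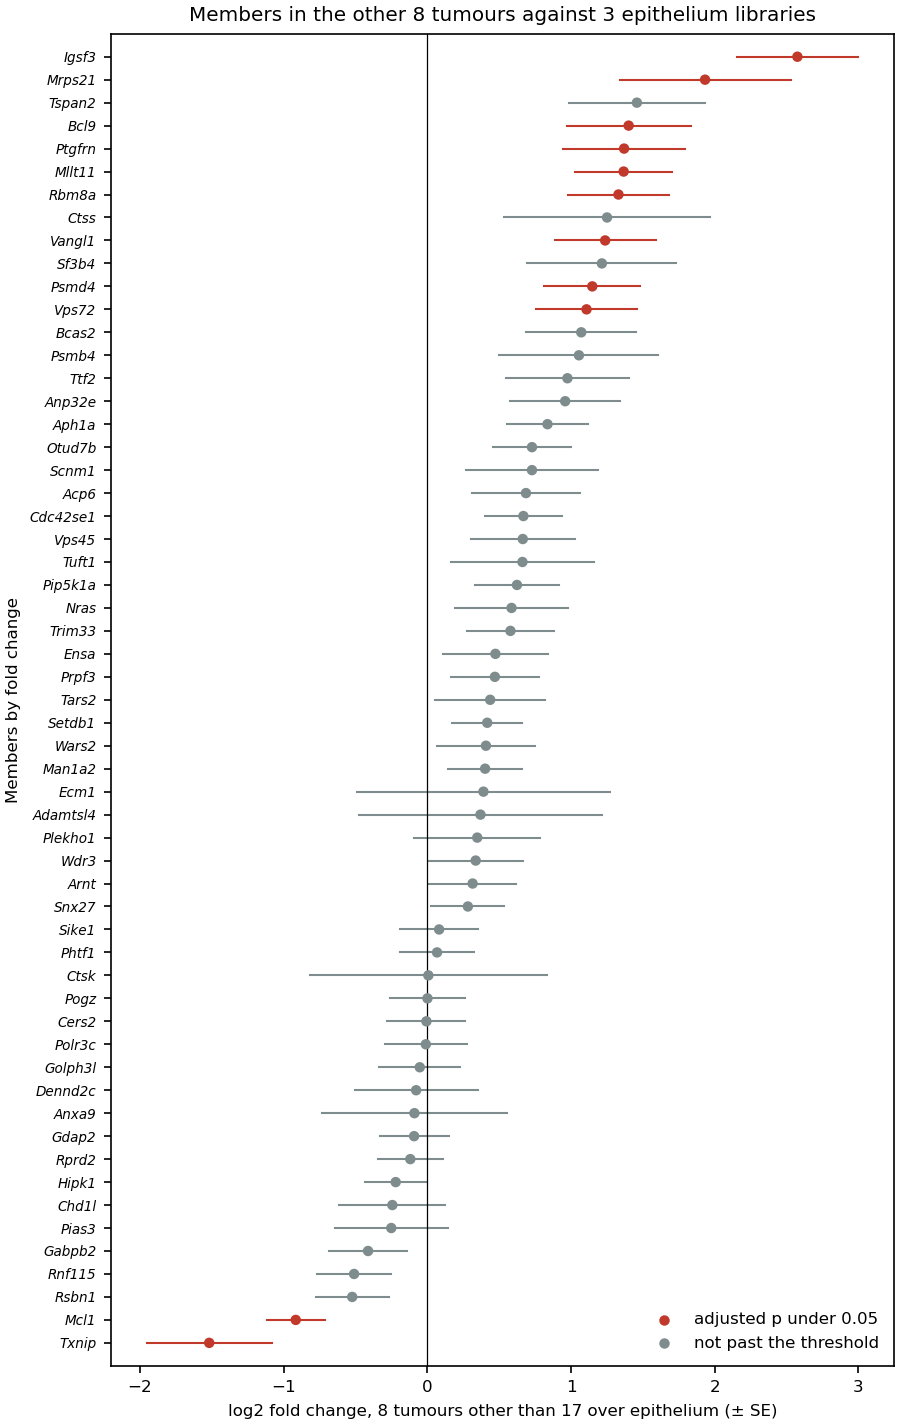
Log2 fold change of each of the 57 members in the 8 tumours other than tumour 17 over epithelium, with bars of 1 standard error and members called by edgeR marked. The called members lie at both signs, from Igsf3 at 2.58 to Txnip at -1.52, and Nras (0.59) is not among them.

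Without epithelium 1, 2 or 3 the number of members called higher was 1 each time and lower 1, 0 and 1, and over all genes the number higher went from 1657 to between 387 and 417. The log2 fold changes of the 11 called members then moved by at most 0.14, 0.23 and 0.11 (medians 0.04, 0.04 and 0.05). That of Rbm8a was 1.36, 1.32 and 1.28 without epithelium 1, 2 and 3, and that of Psmd4 1.15, 1.12 and 1.15. Of the 9 higher only Igsf3 kept its call in all 17 alternatives. Mcl1 lost its call without epithelium 2 (log2 fold change -0.82) and with tumour 17 included (-0.31), and Txnip without any 1 epithelium library or tumour 24. Without tumour 14 there were 5 members higher, without tumour 4 there were 12, and without tumour 24 there was 1 lower. Among the 9 that rose, Psmd4 also lost its call without tumour 5 or 14, Bcl9 without tumour 14, 21 or 24, Mrps21 without tumour 14 or 24, Ptgfrn without tumour 1, 5 or 20, and Vps72 without tumour 1, 5, 14 or 20.

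Genes elsewhere whose products work with those of the members did not share the level of the stretch in tumour 17. Hras, a RAS gene on another chromosome, had a deviation of -0.51 in tumour 17, and its level there was 11.3 CPM per kilobase of exon against 941 for Nras. Of 29 other proteasome subunits none reached 1 and 3 were at or below -1 (median -0.09), from Psmb3 (-1.19) to Psma5 (0.81), which also lies on chromosome 3. Of 20 spliceosome partners none reached 1 and 1, Eftud2 (-1.05), was below -1 (median 0.02, highest Cdc5l at 0.49). The 4 exon junction genes had a median of -0.55 (Casc3 -0.99 to Magohb -0.23), and the 5 gamma-secretase genes with at least 5 CPM, partners of the member Aph1a, 0.38 (Aph1b -0.54 to Psenen 0.54). The 3 partners of Arnt had a median of 0.03 (Ahr -0.19 to Hif1a 0.12) and the 5 of Setdb1 -0.26 (Cbx1 -0.61 to Cbx3 0.33). Of 9 RNA polymerase III subunits 1, Polr3gl (2.59), reached 1, and it lies within the interval itself (median -0.06, lowest Polr3g at -0.43).

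Of 17 ERK output and feedback genes, which respond to RAS signalling, 5 reached 1 in tumour 17 and none was at or below -1 (median 0.57), against 8.16% at or over 1 and a median of 0.02 in all genes. These were the phosphatase gene Dusp4 (2.46, 213 CPM, where the other tumours ran from 22.4 to 222), the transcription factor gene Etv5 (1.84), Ier3 (1.77) and the feedback inhibitor genes Spry1 (1.67) and Spry4 (1.14). The lowest was Spred2 (-0.79). Dusp4 and Spry4 (40.4 CPM, against up to 53.4) were each higher in another tumour than in tumour 17. Summed over the 17 genes, tumour 17 had 2508 CPM and ranked 3 of the 9 tumours, with the others from 853 to 2574. How many of the 17 were past 1 in each other tumour was not counted. Of 12 BCL2 family genes with at least 5 CPM, Bmf (1.51), a pro-death partner of the family, and Bcl2 (1.12) reached 1, and Bax was the lowest at -0.66 (median 0.18).

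**Figure D5:**
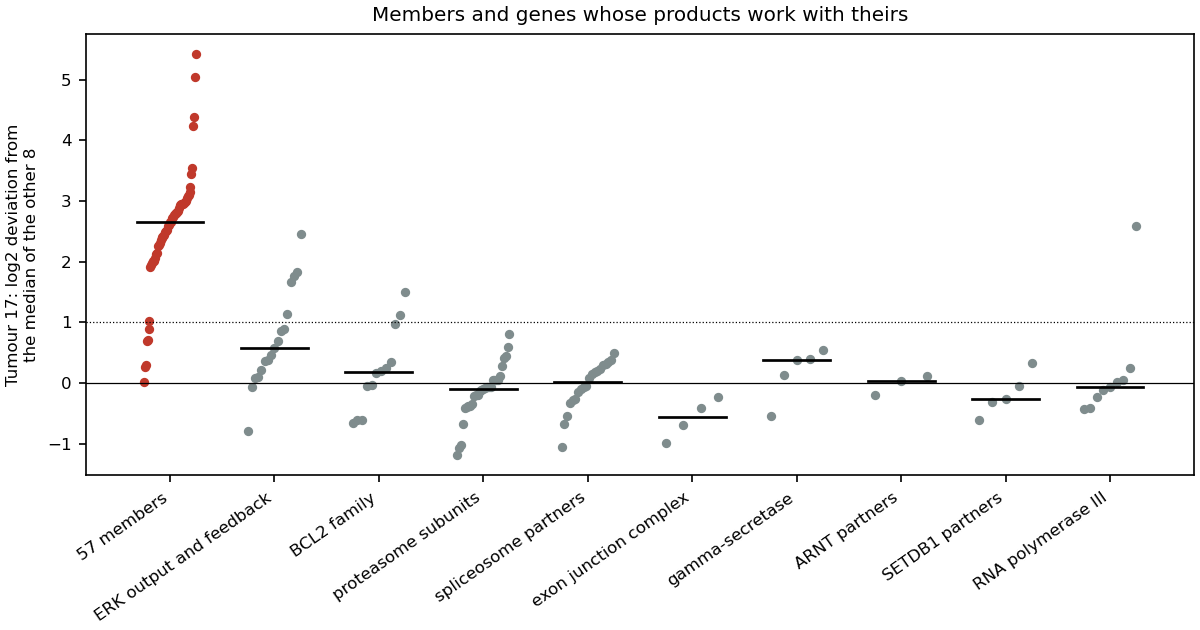
Deviation in tumour 17 (log2) of the 57 members and of the genes in each partner list of 3 or more genes, with 1 point for each gene and a bar for the list's median. Most partner genes lie between -1 and 1, and those past 1 are mainly in the list of ERK output and feedback, where Dusp4 is highest at 2.46.

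Some members overlap. Mllt11 and Cdc42se1 share 3440 bases on opposite strands, Cers2 and Setdb1 share 75 and Wdr3 and Gdap2 share 27. The strand setting of the counting is not given in the sources used here, so reads of the shared bases of these pairs cannot be told apart, and the values of Mllt11 in particular are uncertain.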

How the data were processed

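Total RNA of 9 tumours and 3 epithelium samples was made into TruSeq stranded libraries, per the labels' protocols. The authors deposited raw counts per gene, with no normalization. They used HTSeq 0.11.0, TopHat2 2.1.1, FastQC 0.11.8 and GRCm38, per the submitters' processing notes. The sources used here give neither the annotation release nor the strand setting. In each library 5 summary counts were left out, and 3 of them split the groups without overlap. No feature took 39.9 to 41.5% of alignments in epithelium and 8.08 to 32.3% in tumours. Ambiguous alignments were 1.25 to 1.62% and 1.86 to 3.95%, and those not unique 8.59 to 12.0% and 17.1 to 52.0%. The part of this difference in the comparison of tumours with epithelium was not tested. Positions are from GENCODE M21, in which 54106 of 54658 symbols matched.

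The members, gene lists and tests were chosen with earlier results of these data known. The tests on counts used edgeR 4.0.16 in R 4.3.3 (expression filter by group, trimmed mean of M values, robust quasi-likelihood F test on the group), with DESeq2 1.42.0 and limma 3.58.1 as alternatives, and other values were computed in Python 3.11.15 with pandas 2.3.3. A gene was called at an adjusted p under 0.05, and SE is the size of the log2 fold change divided by the root of F. The test compared the 8 tumours other than 17 with 3 epithelium libraries. Deviations in log2 CPM used a prior count of 2 and have no test. A member was said to follow tumour 17 at a deviation of at least 1, to be intermediate from 0.5 and not to follow below 0.5. The test was tried on simulated data with known changes. No library was a copy of another (chi-square per degree of freedom of at least 26.65 within a group). Named with full values were Nras, Mcl1, the 6 largest and 6 smallest deviations and up to 6 members called in each direction. From each partner list the genes with the largest and smallest deviation were named, and at each end of the interval the nearest gene on either side. Other genes were named after their values were seen, and a few are not reported here. Alternatives were other scalings, prior counts, references, filters and tools, tumour 17 included, and each library left out.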

Additional observations from a re-analysis of the deposited data

Results flagged for a closer look

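Tumour 17 stood alone at the top of the 9 tumours in 32 of the 57 members by Dixon's ratio, the gap from the highest tumour to the next divided by the whole range of log2 CPM, which passed the 95% critical value for 9 samples. Chance marks about 1 in 20 groups. The members were chosen for the height of tumour 17, so these ratios describe that choice and support nothing further. The ratio was 0.766 for the median over all members. It was largest in Mcl1 (0.805), Gdap2 (0.765), Sike1 (0.738), Cdc42se1 (0.735), Rprd2 (0.705) and Setdb1 (0.701). Ratios between 0.6 and 0.7 were found in Bcas2 (0.693), Snx27 (0.688), Golph3l (0.686), Man1a2 (0.676), Nras (0.667), Cers2 (0.665), Gabpb2 (0.662), Wars2 (0.647), Wdr3 (0.642), Tspan2 (0.628), Vangl1 (0.62), Pogz (0.617) and Mllt11 (0.61). The smallest were those of Rnf115 (0.599), Arnt (0.586), Otud7b (0.584), Pip5k1a (0.578), Chd1l (0.578), Polr3c (0.572), Aph1a (0.569), Dennd2c (0.561), Vps72 (0.56), Igsf3 (0.554), Ptgfrn (0.539), Prpf3 (0.531) and Psmd4 (0.511). Tumour 17 did not pass in the remaining 25 members.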

How the results depend on the processing

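The 8 tumours other than 17 gave 9 members higher and 2 lower than epithelium. The number higher was 5 under upper quartile scaling, 5 without a filter on low counts, 14 in DESeq2 and 1 with tumour 17 included. It ran from 1 to 12 when 1 library was left out, and the number lower from 0 to 2. With tumour 17 included edgeR called 0 members lower, with 0 at an unadjusted p under 0.05, while DESeq2 and limma-voom without tumour 17 each called 2. Without epithelium 2 it also called 0 lower, with 2 at an unadjusted p under 0.05. Leaving out a library lowers the number of samples by construction, and for the other settings the cause was not tested. Over all genes tested the median was 0.17 on the log2 scale, against 0.06 under upper quartile scaling and -0.03 in limma-voom. Igsf3 was called in all 17 alternatives (log2 fold change 2.44 to 3.33), Mcl1 in 15 (adjusted p up to 0.721), Mllt11, Rbm8a and Vangl1 in 13, Txnip in 12, Psmd4 in 10, Bcl9 in 7 and Nras in 0 (adjusted p 0.199 to 0.498). Over all genes, DESeq2 called 3581 higher and 3416 lower, against 1657 and 2195, and without an epithelium library 387 to 417 were higher and 1292 to 1328 lower.

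The median deviation of tumour 17 over the members was 2.52 to 2.67 under other scalings, prior counts, a mean as reference or without any 1 other tumour, and 2.98 against the mean of epithelium, with 49 to 51 members at or over 1. None of the members called above changed direction under any of the 17 alternatives. No paired analysis was made, because the tumours and the epithelium differ in genotype and no label matches a tumour with an epithelium sample. With 3 epithelium libraries, a member that missed the threshold is not shown to be unchanged.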

Other observations

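Of the other genes of the interval that were high in tumour 17, 2 are given as examples. Pde4dip, which encodes a scaffold protein of the Golgi and centrosome, had 1946 CPM in tumour 17 and 32.7 to 199.6 CPM in the other tumours, a deviation of 4.23. Notch2, a Notch receptor gene, was raised by less (1.63), with 505 CPM against 83.2 to 391.

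Several other genes inside the interval did not follow tumour 17 either. Fcgr1, an Fc receptor gene of macrophages, had 25.7 CPM in tumour 17 and 8.09 to 42.0 CPM in the other tumours, a deviation of 0.16. Ptpn22, a phosphatase gene of lymphocytes, had 5.84 CPM against 0.691 to 59.4 (-0.77), and Tnfaip8l2, an immune regulator, 7.53 CPM against 3.24 to 32.4 (-0.09). Selenbp1, a selenium-binding protein gene, had 6.52 CPM against 4.16 to 13.3 (-0.13). These 6 genes were picked after their values were seen.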
